A study of Mus musculus with 43 samples.

Results

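The 10 genes described here mark or maintain the Wnt-dependent stem cells of the intestinal crypt, and they were followed through mouse intestinal organoids and sorted crypt cells: Lgr5, Lgr4, Olfm4, Ascl2, Axin2, Smoc2, Rnf43, Znrf3, Sox9 and Igfbp4. They were taken by symbol, and all 10 of the 10 were found, once each, among the 23951 genes of the 3 bulk RNA tables and among the 54307 gene rows of the 7 single-cell libraries. The bulk data were 18 RNA-seq libraries of primary intestinal organoids, epithelial cultures grown from C57BL/6 wild-type mice, in 6 groups of 3. Organoids were left non-irradiated and collected on day 7, or received 4 Gy of ionising radiation on day 4 and were collected on day 7 or on day 11. In each of these conditions they were given vehicle or 2 ng/mL of the cytokine TGFB1 on day 6 for 24 h, so the day 11 libraries were collected after the exposure had ended. Another 4 libraries, of single cells, came from wild-type C57BL/6 organoids irradiated with 4 Gy on day 4 and collected on day 8, after vehicle (called 0 h) or after 1 ng/mL TGFB1 for 6, 15 or 24 h, with 1 library each. A further 3 came from Ki67-RFP+ DAPI- crypt cells of Mki67tm1.1Cle/J mice, in which a red reporter marks cycling cells, sorted from proximal small intestine: 1 library from a non-irradiated littermate and 2 taken 56 h after 12 Gy to the whole body. The irradiated crypts were passed through a coarser strainer than the non-irradiated ones, so strainer and irradiation cannot be told apart in the sorted cells. The labels give no animal ages, and nothing in them says that libraries of a group came from separate animals or cultures, so p-values measure only the spread between these libraries.

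In the crypt, Wnt ligands bind Frizzled and LRP receptors and stabilise beta-catenin, which then acts with TCF/LEF factors on target genes. Lgr5 and Lgr4 are receptors for R-spondins, secreted proteins that strengthen the Wnt signal by clearing Rnf43 and Znrf3, the membrane ubiquitin ligases that remove Frizzled receptors. Axin2 is a scaffold of the complex that degrades beta-catenin and is itself a Wnt target, so Axin2, Rnf43 and Znrf3 all act as negative feedback. Ascl2 is a basic helix-loop-helix factor of crypt base stem cells, and Sox9 is a high-mobility-group factor of crypt progenitors and Paneth cells. Olfm4 is a secreted glycoprotein, Smoc2 a secreted matricellular protein and Igfbp4 a secreted binding protein for insulin-like growth factors, and all of them are enriched in crypt base cells.

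The promoter windows of the feedback genes are shown first, since these genes carry the Wnt feedback described below. RefSeq (build GRCm38.p6) gave a window for 6 of the 10 genes, 7 windows in all because Rnf43 has a pair of starts: Lgr4, Ascl2, Rnf43, Igfbp4, Axin2 and Olfm4. The TCF/LEF words searched, on both strands of the 250 bases before each start, were CTTTGAT and its variants CTTTGTT, then CTTTGAA, and also CTTTGTA. None of the 7 windows held any of them, against 14.8% of the 32851 windows in the table. CAGAC, a short word bound by SMAD proteins, was present in 3 of the 7 windows, those of Axin2 and Rnf43, against 42.2% of all windows. The words are letters in these windows only and say nothing of binding. The windows of these 2 genes follow, 5′ to 3′ on the strand of the gene, with CAGAC or its reverse complement in capitals. They lie on the + strand at chr11:108920099-108920348 (Axin2), chr11:87662837-87663086 (Rnf43, upstream start) and chr11:87699647-87699896 (Rnf43, downstream start), each directly upstream of an annotated start.
Axin2: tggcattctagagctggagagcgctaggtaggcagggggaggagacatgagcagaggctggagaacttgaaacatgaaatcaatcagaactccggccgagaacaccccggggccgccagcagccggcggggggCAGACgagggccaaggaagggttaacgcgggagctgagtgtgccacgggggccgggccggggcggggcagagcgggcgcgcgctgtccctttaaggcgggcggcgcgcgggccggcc
Rnf43 upstream start: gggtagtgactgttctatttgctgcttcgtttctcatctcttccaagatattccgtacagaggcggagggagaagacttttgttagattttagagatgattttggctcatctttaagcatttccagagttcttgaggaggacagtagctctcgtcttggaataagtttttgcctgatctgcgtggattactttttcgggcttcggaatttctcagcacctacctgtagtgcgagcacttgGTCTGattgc
Rnf43 downstream start: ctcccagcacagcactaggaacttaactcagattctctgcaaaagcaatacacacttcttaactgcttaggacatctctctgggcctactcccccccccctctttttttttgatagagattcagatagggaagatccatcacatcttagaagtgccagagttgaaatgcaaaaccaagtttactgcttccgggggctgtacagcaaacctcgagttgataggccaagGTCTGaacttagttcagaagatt

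Bulk levels are FPKM, read fragments scaled to transcript length and sequencing depth, so they can be set side by side between genes. In non-irradiated vehicle organoids Olfm4 had the highest level of the 10 genes, 373 ± 29.7 FPKM (SD, n = 3), followed by Igfbp4 at 145 ± 1.16, Lgr5 at 105 ± 1.88 and Smoc2 at 92.8 ± 5.18. Znrf3 was the lowest in each of the 6 groups, between 3.61 and 6.59 FPKM on average, and Olfm4 was the highest in 5 of them. The exception was the non-irradiated TGFB1 group, where Igfbp4 led at 370 ± 3.13 and Olfm4 stood at 77.2 ± 8.01. From highest to lowest group mean, Lgr5 spanned 11.8-fold, Olfm4 8.62-fold and Igfbp4 4.11-fold, while Znrf3 spanned 1.82-fold and Axin2 1.92-fold. The libraries summed to between 447728 and 621996 FPKM, with 11040 to 11361 genes above 1 FPKM. The 6 defining epithelial markers summed to 3302 FPKM or more in every library. The 6 immune markers measured summed to 0.292 to 9.45 FPKM per library and were highest in irradiated day 7 TGFB1 libraries (9.03 to 9.45), nearly all of it Lyz2, which rose with TGFB1 there (means of 2.88 to 8.88 FPKM, limma adjusted p = 2.2e-07) and on day 11 (2.49 to 5.74, adjusted p = 0.016). Ptprc, the pan-leukocyte gene, averaged at most 0.0617 FPKM in a group. The 6 mesenchymal markers summed to 1.32 to 6.78 FPKM, mostly Vim, which fell with TGFB1 on day 11 (5.91 to 1.73, adjusted p = 5.18e-05), while Col1a1 averaged at most 0.397. The 3 endothelial markers summed to at most 0.228. The part of these markers in the results was not tested.

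**Figure D1:**
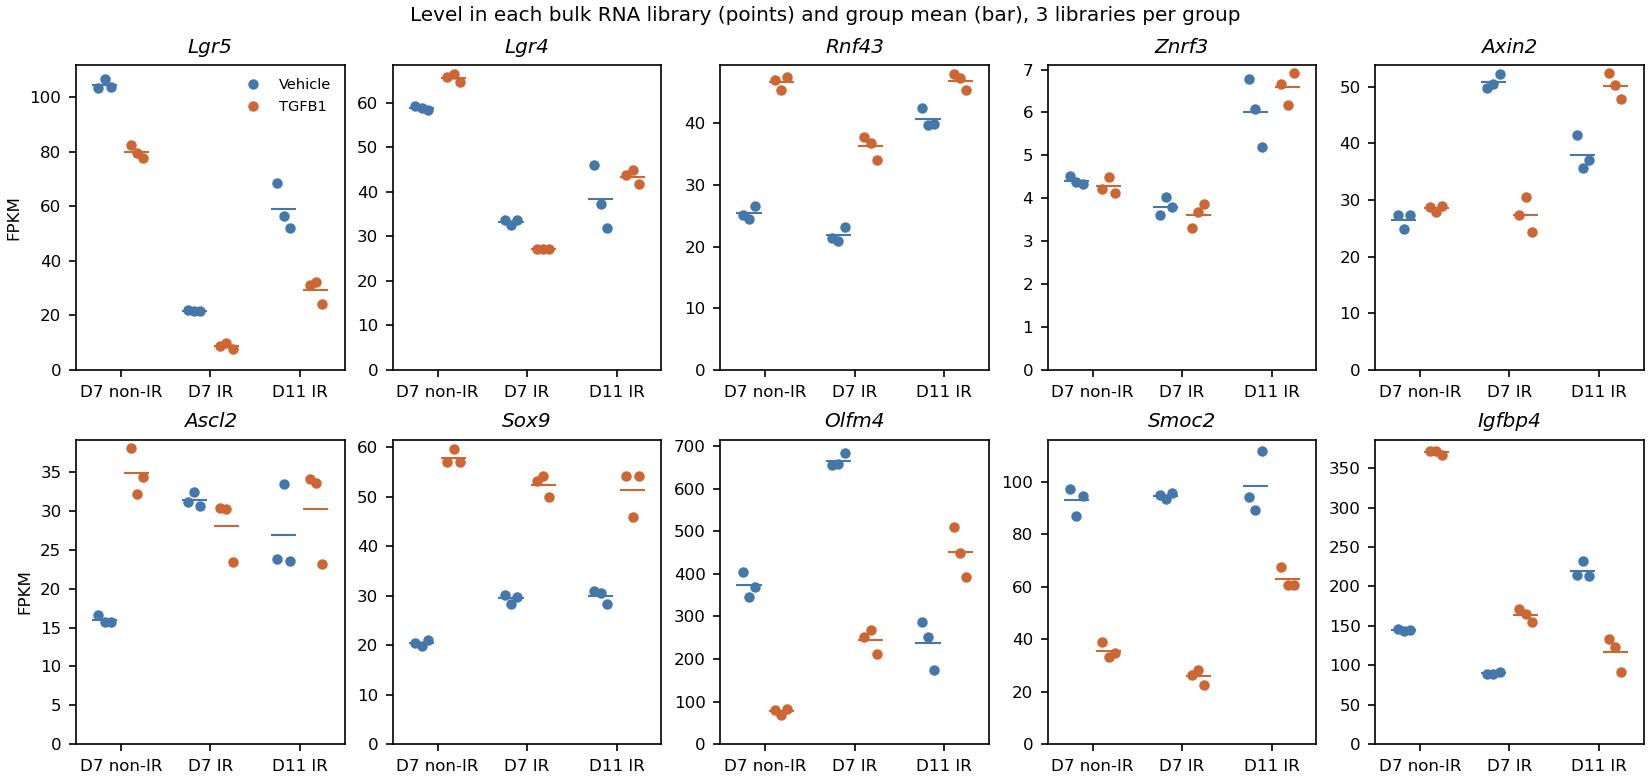
FPKM of each gene in the 18 bulk libraries; points are libraries, short bars are means of 3, blue is vehicle and orange is TGFB1, and the horizontal axis gives the day and irradiation (IR). Lgr5 is highest in non-irradiated vehicle organoids (103 to 107 FPKM) and lowest in day 7 irradiated organoids with TGFB1 (7.84 to 9.78), whereas Olfm4 peaks in irradiated day 7 vehicle organoids (655 to 685).

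Exposure to TGFB1 for 24 h split the 10 genes in non-irradiated organoids: Sox9, Igfbp4, Ascl2, Rnf43 and Lgr4 rose, and Olfm4, Smoc2 and Lgr5 fell. Changes are given as TGFB1 minus vehicle on the log2(FPKM + 1) scale and were tested with limma over all genes averaging 1 FPKM or more, a gene being called at a Benjamini-Hochberg adjusted p under 0.05. Of 11330 genes tested, 33.3% were called higher and 34.9% lower, and of the 10 genes 5 were called higher and 3 lower. The members' median change was 0.13, against -0.02 over all genes. In day 7 irradiated organoids 3 were higher (Rnf43, Sox9 and Igfbp4) and 5 were lower (Lgr5, Lgr4, Olfm4, Axin2 and Smoc2), where 35.8% of 11258 genes were higher and 39.7% lower, and the medians were -0.23 for the members and -0.03 for all genes. On day 11, after TGFB1 had been removed, 4 were higher (Olfm4, Axin2, Rnf43 and Sox9) and 3 were lower (Lgr5, Smoc2 and Igfbp4), where 32.3% of 11479 genes were higher and 31.6% lower, and the medians were 0.17 and 0.01. Calls were common among all genes. On the log2(FPKM + 1) scale, which understates ratios of the FPKM means given below, members with a change of at least 1 numbered 5 of 10 in non-irradiated organoids, 3 in irradiated day 7 organoids and 0 on day 11, beside 8.44%, 13.2% and 13.7% of all genes tested. In bulk libraries fewer cells of a type and less RNA per cell cannot be told apart.

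**Figure D2:**
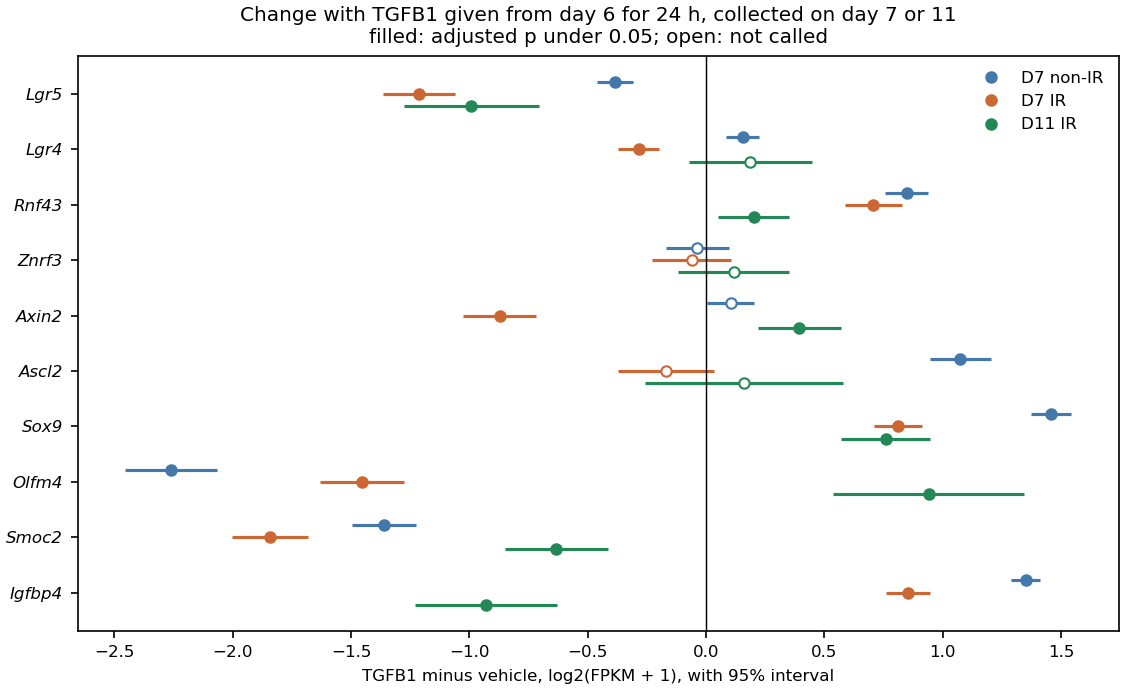
TGFB1 minus vehicle on the log2(FPKM + 1) scale for each gene in 3 tables of 6 libraries each; bars are 95% intervals from limma, filled points passed an adjusted p of 0.05 and open points did not. Lgr5 and Smoc2 lie left of 0 and Sox9 and Rnf43 right of 0 in all 3 tables, while Olfm4 moves from -2.26 and -1.45 on day 7 to 0.94 on day 11, and Igfbp4 from 1.35 and 0.85 to -0.93.

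Among the R-spondin receptors, Lgr5 fell with TGFB1 under each condition and lost more of its level after irradiation. Its 3 non-irradiated vehicle libraries held 103, 104 and 107 FPKM, and the 3 TGFB1 libraries 77.6, 79.7 and 82.7. These groups did not overlap, and Lgr5 was lower by 1.31-fold (log2 change -0.38 ± 0.03 SE, adjusted p = 2.47e-06). In irradiated organoids on day 7 it held 21.6, 21.8 and 21.9 FPKM with vehicle, and 7.84, 8.93 and 9.78 with TGFB1. That difference was 2.46-fold (log2 change -1.21 ± 0.07, adjusted p = 5.91e-08). On day 11 the vehicle libraries held 52.1, 56.5 and 68.5 FPKM and the TGFB1 libraries 24.2, 31.2 and 32.2, again with no overlap (2.02-fold lower, log2 change -0.99 ± 0.13, adjusted p = 0.000109). No neighbouring groups in the order of Lgr5 levels overlapped in their libraries.

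Lgr4, the more widely expressed receptor of the pair, changed little. It went from 58.5, 58.9 and 59.3 FPKM to 64.7, 65.8 and 66.5 in non-irradiated organoids (log2 change 0.15 ± 0.03, adjusted p = 0.00125). A limma fit over the 18 libraries together did not call it (adjusted p = 0.108). After irradiation it went the other way on day 7, from 32.6, 33.7 and 33.8 FPKM to 27.2 in each TGFB1 library (log2 change -0.29 ± 0.04, adjusted p = 5.58e-05). The day 11 groups overlapped, 31.9 to 46.0 FPKM with vehicle against 41.7 to 44.8 with TGFB1 (log2 change 0.19, 95% interval -0.07 to 0.45, adjusted p = 0.183). That difference was called without vehicle replicate 1 (0.32, adjusted p = 0.00857).

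Of the feedback genes, Rnf43 rose in all 3 tables. In non-irradiated organoids it went from 24.6, 25.2 and 26.7 FPKM to 45.4, 47.1 and 47.5 (1.83-fold, log2 change 0.85 ± 0.04, adjusted p = 1.66e-08). In irradiated day 7 organoids it went from 20.8, 21.4 and 23.2 FPKM to 34.1, 36.9 and 37.8 (1.66-fold, log2 change 0.71 ± 0.05, adjusted p = 6.33e-07). The groups did not overlap at either of these. On day 11 the gap was 1.15-fold, from 39.7, 40.0 and 42.4 FPKM to 45.4, 47.4 and 48.1 (log2 change 0.20 ± 0.07, adjusted p = 0.0247), and it was no longer called without vehicle replicate 2 or 3 or TGFB1 replicate 1 or 2 (adjusted p 0.0578 to 0.105).

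Znrf3, the paralog of Rnf43, passed the test in none of the 3 tables, with adjusted p-values of 0.599, 0.476 and 0.348. Its log2 changes had 95% intervals of -0.17 to 0.10 in non-irradiated organoids, -0.23 to 0.11 after irradiation on day 7 and -0.12 to 0.35 on day 11. Levels ran from 3.30 to 4.52 FPKM over the day 7 libraries and from 5.21 to 6.92 over those of day 11.

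Axin2, the feedback scaffold, depended on the condition. In non-irradiated organoids it held 24.9, 27.3 and 27.3 FPKM with vehicle and 27.9, 28.8 and 28.9 with TGFB1, a log2 change of 0.10 (95% interval 0.01 to 0.20) that missed the threshold (adjusted p = 0.058). In irradiated day 7 organoids it fell 1.85-fold, from 49.7, 50.5 and 52.2 FPKM to 24.4, 27.4 and 30.5 (log2 change -0.87 ± 0.07, adjusted p = 1.18e-06). On day 11 it was 1.32-fold higher after TGFB1, 47.9, 50.3 and 52.4 against 35.7, 37.0 and 41.4 FPKM (log2 change 0.39 ± 0.08, adjusted p = 0.00162).

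Both transcription factors rose in non-irradiated organoids. Sox9 went from 19.9, 20.4 and 21.0 FPKM to 57.0, 57.1 and 59.6, a 2.84-fold rise (log2 change 1.46 ± 0.04, adjusted p = 1.58e-10). It was 1.78-fold higher in irradiated day 7 organoids (28.3, 29.8 and 30.2 to 50.0, 53.1 and 54.2 FPKM, adjusted p = 5.34e-08) and 1.72-fold higher on day 11 (28.3, 30.5 and 31.0 to 45.8, 54.2 and 54.3 FPKM, adjusted p = 3.8e-05). Its TGFB1 libraries lay above its vehicle libraries in each table.

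Ascl2 rose 2.18-fold in non-irradiated organoids, from 15.7, 15.8 and 16.6 FPKM to 32.2, 34.4 and 38.1 (log2 change 1.07 ± 0.06, adjusted p = 4.15e-08). After irradiation no TGFB1 change was called. On day 7 the vehicle libraries held 30.6, 31.2 and 32.4 FPKM and the TGFB1 libraries 23.4, 30.2 and 30.3 (95% interval of the log2 change -0.37 to 0.03, adjusted p = 0.112). On day 11 both groups spread widely, from 23.5 to 33.4 FPKM with vehicle and from 23.2 to 34.1 with TGFB1 (95% interval -0.26 to 0.58, adjusted p = 0.458).

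Among the secreted products, Olfm4 had the largest day 7 fall in non-irradiated organoids and the opposite sign on day 11. It went from 346, 369 and 405 FPKM to 68.1, 80.6 and 83.0 in non-irradiated organoids, 4.83-fold lower (log2 change -2.26 ± 0.08, adjusted p = 8.33e-08). In irradiated day 7 organoids it went from 655, 658 and 685 FPKM to 211, 252 and 269, 2.73-fold lower (log2 change -1.45 ± 0.08, adjusted p = 1.99e-07). On day 11 the TGFB1 libraries held 392, 449 and 510 FPKM, above the vehicle libraries at 175, 252 and 288 (1.89-fold, log2 change 0.94 ± 0.18, adjusted p = 0.00137).

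Smoc2 fell in all 3 tables, by less on day 11. It went from 87.0, 94.5 and 97.0 FPKM to 33.2, 34.7 and 38.9 in non-irradiated organoids (2.61-fold lower, adjusted p = 1.4e-08). After irradiation on day 7 it went from 93.4, 94.998 and 95.5 FPKM to 22.5, 26.5 and 28.3 (3.67-fold lower, adjusted p = 1.07e-08). The day 11 libraries held 89.1, 94.2 and 112 FPKM with vehicle and 60.4, 60.8 and 67.4 after TGFB1 (1.56-fold lower, adjusted p = 0.000321).

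Igfbp4 rose on day 7 and was lower on day 11. Non-irradiated organoids went from 144, 144 and 146 FPKM to 367, 371 and 372, with almost no spread between libraries (2.56-fold, log2 change 1.35 ± 0.03, adjusted p = 2.7e-11). Irradiated organoids on day 7 went from 89.5, 89.5 and 91.3 FPKM to 155, 165 and 172 (1.82-fold, adjusted p = 2.1e-08). On day 11 the vehicle libraries held 213, 215 and 232 FPKM and the TGFB1 libraries 91.9, 124 and 134, 1.89-fold lower (log2 change -0.93 ± 0.13, adjusted p = 0.000198).

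Markers of other cells and states moved in the same libraries. Their counts stand beside 33.3%, 35.8% and 32.3% of all genes higher and 34.9%, 39.7% and 31.6% lower in non-irradiated, irradiated day 7 and day 11 organoids. The 10 proliferation markers, among them Mki67 and Top2a, had 7 lower and 1 higher with TGFB1 in non-irradiated organoids, 10 lower in irradiated day 7 organoids, and 4 higher and none lower on day 11. Their summed level was 245 to 289 FPKM in irradiated day 7 TGFB1 libraries against 823 to 833 with vehicle. Clu, a marker of regenerating epithelium, rose in each table, from 47.7 to 1768, from 191 to 3968 and from 78.6 to 3938 FPKM on average. Of the regenerative markers, 9 of 9, 8 of 9 and 9 of 10 tested rose, and their sums were 1577 to 1628 FPKM with vehicle against 7632 to 8085 with TGFB1 in non-irradiated organoids, 1036 to 1093 against 7995 to 8791 in irradiated ones on day 7, and 712 to 957 against 6130 to 6975 on day 11. Paneth markers were higher for 2 and lower for 4 of 8 genes in non-irradiated organoids, and higher for 8 in irradiated day 7 organoids and for 6 on day 11. Of 8 enteroendocrine markers, 8 were higher with TGFB1 in irradiated day 7 organoids (sums of 558 to 613 FPKM against 1624 to 1808) and 7 lower on day 11 (946 to 1128 against 370 to 468). Enterocyte markers summed to 14886 FPKM or more in each irradiated day 7 library against at most 3734 in non-irradiated ones. These tables may have been scaled apart. The enterocyte sums with vehicle and TGFB1 were 3572 to 3734 and 1633 to 1771 FPKM in non-irradiated organoids. After irradiation they were 14886 to 15869 and 21735 to 22600 on day 7, and 3652 to 6338 and 2365 to 2778 on day 11. Goblet sums were 6282 to 6645 and 4714 to 5111 in non-irradiated organoids. The irradiated sums were 2586 to 2632 and 2212 to 2403 on day 7, and 3250 to 3954 and 2361 to 2574 on day 11. The part of these markers in the changes of the 10 genes was not tested.

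Whether irradiation altered the response to TGFB1 was asked with the difference of the 2 day 7 changes in one limma fit, in which 25.3% of 11411 genes were higher and 27.8% lower. Of the 10 genes 7 were lower, meaning a response shifted downwards after irradiation: Ascl2 by -1.24 ± 0.12, Axin2 by -0.98 ± 0.09, Lgr5 by -0.83 ± 0.08, Sox9 by -0.65 ± 0.06, Igfbp4 by -0.50 ± 0.05, Smoc2 by -0.48 ± 0.10 and Lgr4 by -0.44 ± 0.04 (log2 ± SE). Olfm4 was the 1 gene with a term above 0 that passed, 0.81 ± 0.13, since its fall was smaller after irradiation. Rnf43 (adjusted p = 0.106) and Znrf3 (adjusted p = 0.839) did not pass, with 95% intervals of -0.29 to 0.01 and -0.21 to 0.17. The same question between day 11 and day 7 in irradiated organoids gave 31.5% of 11456 genes higher and 33% lower. There Olfm4 (2.39 ± 0.22), Axin2 (1.26 ± 0.11), Smoc2 (1.21 ± 0.13) and Lgr4 (0.47 ± 0.13) were higher, and Igfbp4 (-1.78 ± 0.15) and Rnf43 (-0.51 ± 0.08) lower. The terms of Lgr5 (0.22, 95% interval -0.12 to 0.56), Ascl2 (0.33, -0.17 to 0.84), Znrf3 (0.18, -0.09 to 0.45) and Sox9 (-0.05, -0.26 to 0.16) were not called. Without day 11 TGFB1 replicate 3, those of Lgr5 (0.35, adjusted p = 0.042) and Ascl2 (0.51, adjusted p = 0.0343) were called.

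Irradiation alone was read from vehicle libraries of separate tables, which may have been scaled apart, so only levels are compared and no p is given. On day 7 Lgr5 was 4.81-fold lower in irradiated than in non-irradiated organoids, while Olfm4 (1.78-fold), Ascl2 (1.96-fold), Axin2 (1.92-fold) and Sox9 (1.44-fold) were higher. Groups did not overlap for these 5 genes or for Lgr4, Rnf43, Znrf3 and Igfbp4, all lower, and the vehicle groups of Smoc2 overlapped. Among 11235 genes, 40.7% were higher and 44.3% lower without overlap. With all 18 libraries quantile-normalised, Znrf3 overlapped too, leaving 4 lower. From day 7 to day 11 in irradiated vehicle organoids Lgr5 was 2.71-fold higher, Igfbp4 2.44-fold, Rnf43 1.87-fold and Znrf3 1.58-fold, all without overlap. Olfm4 was 2.80-fold lower and Axin2 1.34-fold lower, and the groups of Lgr4, Ascl2, Smoc2 and Sox9 overlapped. Without overlap, 33.7% of 11264 genes were higher and 33.1% lower over the same interval.

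The genes around the pathway were taken as a list of 68 ordered by role. Of these 41, 40 and 42 reached 1 FPKM on average in the 3 tables, and 22, 20 and 22 of them rose and 5, 8 and 6 fell in non-irradiated, irradiated day 7 and day 11 organoids. Over all genes tested, 33.3%, 35.8% and 32.3% rose and 34.9%, 39.7% and 31.6% fell. The list's median log2 change was 0.13, 0.13 and 0.27, against -0.02, -0.03 and 0.01 over all genes. Of 11 ligands and secretion genes, Wls, the carrier that exports Wnt proteins, rose in each table (29.9 to 56.1, 8.78 to 23.6 and 15.6 to 40.3 FPKM), and Wnt10a and Wnt7b reached 7.08 and 19.5 FPKM in the day 11 TGFB1 group from vehicle means of 0.0643 and 0.158. The R-spondin Rspo4 was tested on day 11 alone, where it fell from 3.34 to 0.421 FPKM. Of the receptors, Fzd2 rose in each table (adjusted p at most 3.71e-05) and Fzd6 rose most on day 11 (log2 change 1.07). Ctnnb1, which encodes beta-catenin, rose from 364 to 812 FPKM in non-irradiated organoids, from 300 to 801 in irradiated day 7 organoids and from 329 to 506 on day 11.

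Among the inhibitors, Nkd1, a cytoplasmic Wnt antagonist, rose in each table (log2 changes 1.00, 1.62 and 1.82), and Sfrp5, a secreted one, fell from 6.92 to 1.43 FPKM in irradiated day 7 organoids and was higher on day 11 (3.61 to 5.19). Sfrp2 reached 5.82 FPKM in non-irradiated TGFB1 organoids from a vehicle mean of 0.0123 and averaged at most 0.113 in the irradiated groups. Of 9 further Wnt targets, 7 rose and none fell in non-irradiated organoids, 3 rose and 3 fell in irradiated day 7 organoids, and 5 rose and 2 fell on day 11. Cd44, an adhesion receptor, Ephb3, a guidance receptor, and Sp5, a zinc finger factor, rose in each table, with Cd44 going from 18.7 to 112, from 20.2 to 86.1 and from 21.3 to 75.3 FPKM. Of 12 other crypt stem genes measured, 3, 3 and 4 rose and 8, 7 and 6 fell. Both sets of counts stand beside 33.3%, 35.8% and 32.3% of all genes higher and 34.9%, 39.7% and 31.6% lower. Aqp4, a water channel, fell to 7.85, 1.42 and 2.91 FPKM from 30.8, 19.1 and 22.5, and Soat1, an acyltransferase, fell in each table, while Gkn3 rose from 2.68 to 135, from 13.3 to 62.7 and from 33.7 to 74.6 FPKM.

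Over the 6 group means, the genes whose centred log2 levels lay closest to those of Lgr5 among 2632 candidates were Snora70, Mptx1, Efna3, Gdf15 and Slc38a1, with root mean square differences of 0.24 to 0.38 against a median of 1.43. Snora70 is a short RNA whose libraries scattered widely (SD 13.4 to 73.8 FPKM), and none of its 3 TGFB1 changes passed the test. The closest of the other 9 members was Lgr4 (0.81), and the rest lay between 1.05 and 1.76. The 5 genes above were picked as the nearest, so their smaller distances follow largely from that choice. A gene with no change between groups would lie at 1.17, the root mean square of Lgr5 itself. Distances near 1.17 can thus reflect little change rather than an unlike pattern. Lgr4, Ascl2, Axin2, Rnf43 and Znrf3 varied too little between groups to be candidates themselves (own root mean square 0.27 to 0.43). Their distances are given without a rank. The likeness rests on 6 groups, with tables set side by side as deposited.

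In single cells, levels are CPM, a gene's summed UMIs (molecular tags) over all kept cells scaled to the library's total, with exact Poisson 95% intervals that cover counting error only. After filtering, the organoid libraries held 2932, 4283, 2890 and 2218 cells at 0, 6, 15 and 24 h, with median depths of 6709 to 10441 UMIs per cell, and any pair of the 7 libraries shared at most 1 barcode. UMIs carry no length correction across genes, so each gene is compared only with itself. There is 1 library per time and no replicate check, so no p is given and a difference compares these libraries.

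Igfbp4 differed most from 0 h over the TGFB1 time course. It stood at 56.7 CPM (95% interval 53.9 to 59.6) at 0 h and at 134, 138 and 141 CPM at 6, 15 and 24 h, a ratio to 0 h of 2.37 (2.24 to 2.52) already at 6 h. Rnf43 was higher at each later time, 42.3, 61.5, 73.1 and 90.1 CPM, and 2.13-fold (1.99 to 2.28) higher at 24 h. Sox9 stood at 79.1, 97.9, 117 and 123 CPM, 1.56-fold higher at 24 h. Smoc2 stood at 201, 112, 98.4 and 97.9 CPM, with most of the difference present at 6 h (ratio 0.557, 0.534 to 0.581). At 6 h 1 of the 10 genes was at least 2-fold higher and 0 lower, beside 1.01% and 0.31% of 8400 genes with a mean of at least 10 CPM. By 15 h the counts were 1 and 1, beside 2.21% and 0.89%, and by 24 h they were 2 (Igfbp4 and Rnf43) and 1 (Smoc2), beside 4.44% and 1.52%.

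The other genes differed less. Ascl2 stood at 19.4, 26.3, 24.0 and 19.6 CPM over the 4 times, so the 24 h value was within counting error of 0 h (ratio 1.01, 0.89 to 1.13). Olfm4 stood at 1965, 2168, 2241 and 1626 CPM, Axin2 at 75.6, 65.1, 65.5 and 67.1, Lgr4 at 91.6, 85.2, 84.3 and 91.5, and Znrf3 at 13.1, 13.3, 11.5 and 14.8. Clu stood at 13.3, 67.8, 325 and 773 CPM in the same libraries, and Mki67 at 125, 144, 83.6 and 59.8. Their part in the levels of the 10 genes was not tested.

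Lgr5 needs its counting described before its level. The deposited matrices hold fractional expected counts, for which the labels state no further origin. For Lgr5, the share of UMIs in entries further than 1e-06 from a whole number was 18.1% at 0 h, 17.5% at 6 h, 20.4% at 15 h and 37.9% at 24 h. Among sorted cells this share was 24.3% without irradiation, and 47.4% and 46.8% after it. Over all genes the fractional share was 8.64% to 12.0% in organoids and 14.4% to 22.0% in sorted cells. Among genes with at least 10 CPM the median share was at most 0.119% in any library, and 8.27% to 12.1% of them exceeded Lgr5. Igfbp4 came next among the 10 genes with 2.57% to 13.3%, Lgr4, Sox9, Ascl2 and Znrf3 stayed at or under 3.69%, Olfm4 at or under 0.00492%, and Axin2, Smoc2 and Rnf43 held none in any library. Of the 118 cells with a fractional Lgr5 value at 0 h, 34 held less than 1 UMI, and the highest value was 11.7.

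Taken with all its UMIs, Lgr5 stood at 35.9 CPM at 0 h, 23.4 at 6 h, 30.5 at 15 h and 37.1 at 24 h. The 6 h library was the lowest, at 0.65 of the 0 h level (0.59 to 0.72), and the 24 h library was at 1.03 (0.95 to 1.13). From whole-number entries alone the levels were 32.3, 21.1, 26.8 and 26.1 CPM, so the 24 h library then stood at 0.81 of 0 h. With all UMIs the 24 h level was within counting error of 0 h. Whole-number entries leave out 37.9% of the Lgr5 UMIs at 24 h and 18.1% at 0 h, so the 24 h ratio is uncertain. At 6 h both counts gave 0.65 of the 0 h level. In bulk irradiated organoids, where 2 ng/mL was given on day 6 instead of 1 ng/mL before day 8, the TGFB1 mean of Lgr5 was 0.407 of the vehicle mean after 24 h. The 24 h ratios are given side by side at these different doses and days, with no comparison made. They were 0.366 in bulk and 0.827 in single cells for Olfm4, 0.540 and 0.887 for Axin2, and 0.272 and 0.488 for Smoc2. For Rnf43 they were 1.66 and 2.13, for Sox9 1.78 and 1.56, and for Igfbp4 1.82 and 2.49. The directions did not match for Ascl2 (0.892 and 1.01) and Znrf3 (0.949 and 1.13). Both single-cell ratios were within counting error of no difference, and neither bulk change was called. Lgr4 had a bulk ratio of 0.815, while its single-cell level was 91.6 CPM at 0 h and 91.5 at 24 h.

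**Figure D3:**
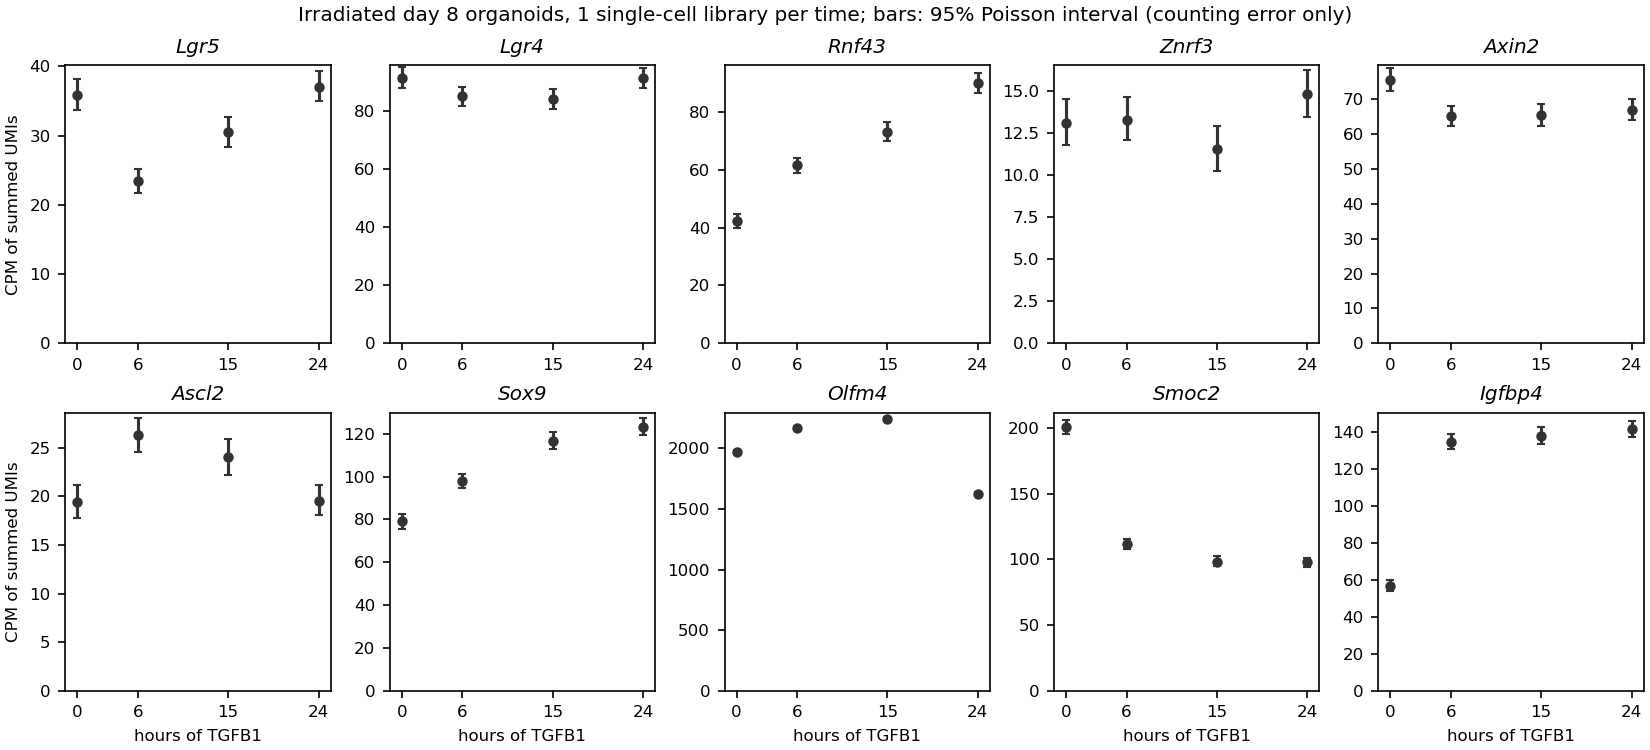
CPM of summed UMIs (vertical axis) against hours of TGFB1 (horizontal axis) in irradiated day 8 organoids; each point is 1 library, and bars are 95% Poisson intervals for counting error only. Rnf43 and Sox9 are higher at each later time, Igfbp4 stands at 56.7 CPM at 0 h and 134 at 6 h, and Smoc2 at 201 and 112 CPM.

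Cells were thinned to 2000 UMIs each, leaving out 1, 5, 0 and 0 shallower cells at the 4 times, to compare how many carried a UMI. Lgr5 was seen in 6.31% of cells at 0 h, 4.30% at 6 h, 5.71% at 15 h and 5.82% at 24 h, and in 17.4%, 11.3%, 14.7% and 19.3% without thinning. In enterocyte-like cells, mature absorptive cells that should lack Lgr5, the thinned share was 0.269%, 0.192%, 0.189% and 0% (0 of 220 cells, which allows a share of cells with a UMI of up to 1.36% by 3 counts, or 1.66% by the exact binomial interval), against 8.37%, 5.62%, 6.94% and 6.46% in all other cells. Median depths before thinning were 6522 to 13451 UMIs in enterocyte-like cells and 6791 to 9870 in the others. Olfm4 was seen in 45.2%, 49.6%, 46.5% and 40.5% of cells, and in 17.7% to 21.8% of enterocyte-like cells. Whether the Olfm4 UMIs in enterocyte-like cells came from these cells was not tested. Cells with an Lgr5 UMI carried an Olfm4 UMI in 93.0%, 97.3%, 97.0% and 95.3% of cases over the 4 times, against 42.0%, 47.5%, 43.5% and 37.1% of the remaining cells. For Axin2 the shares were 34.1%, 33.2%, 32.1% and 32.6% of cells with an Lgr5 UMI, against 9.38% to 10.2% of the others. Smoc2 was seen in 34.5% to 55.1% of cells with an Lgr5 UMI and in 12.8% to 24.4% of the others. Lgr4 was seen in 27.0%, 14.1% and 23.3% of cells with an Lgr5 UMI at 0, 6 and 24 h and in 33 of 165 such cells at 15 h. Among the other cells it was seen in 16.3%, 15.4%, 16.2% and 14.2% in the same order, so at 6 h the shares were close.

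The organoid cells fell into 12 clusters, built without the 10 genes. In 9 of the 10 genes the highest level was in the same cluster of 1458 cells (number 5, led by Cym, Fstl1 and Gkn3, and left unnamed), and in Smoc2 it was in cluster 8 at 282 CPM, beside 278 in cluster 5. At a finer resolution of 18 clusters 5 of the 10 genes shared 1 top cluster, while Ascl2, Smoc2, Sox9 and Lgr4 were highest in a tuft-like cluster and Axin2 in a proliferating-like one. Ascl2 and Lgr4 had the same value in the tuft-like cluster, 132.58 CPM. Its numbers of cells and UMIs are not given here, so these top ranks may rest on few counts. Lgr5 stood at 119 CPM in cluster 5, 5.86 times its level in the rest of the cells, and at 2.13 CPM in the enterocyte-like cluster. Igfbp4 and Olfm4 (each 4.55 times the rest), Rnf43 (3.57), Ascl2 (3.49), Axin2 (3.32), Sox9 (3.11), Znrf3 (2.81) and Smoc2 (2.61) showed the same preference. Lgr4 was the exception, at 106 CPM in cluster 5 and between 63.6 and 103 CPM elsewhere, 1.23 times the rest. The proliferating-like clusters 7 and 9 held intermediate levels, with 51.2 and 46.2 CPM of Lgr5 and 3665 and 3758 CPM of Olfm4. In the regenerative-like cluster, led by Ada, Tm4sf4 and Anxa1, Lgr5 was at 7.89, Olfm4 at 290 and Sox9 at 94.3 CPM. Sox9 was also high in the goblet-like cluster (246 CPM), whose leading genes included the enteroendocrine genes Chga, Chgb and Cck beside Tff3 and Fcgbp. This cluster was mixed, with median marker folds of 38.8 for goblet, 24.8 for enteroendocrine, 24.8 for tuft and 8.93 for Paneth markers. Which of these cells held Sox9 was not tested.

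Within cluster 5, Lgr5 taken with all its UMIs was 202 CPM at 0 h and 97.3, 93.7 and 121 CPM at 6, 15 and 24 h. The fractional share of Lgr5 UMIs in the whole library was 20.4% at 15 h and 37.9% at 24 h, so the last step is uncertain. Olfm4 there held 7814, 7680, 6990 and 5233 CPM, and Igfbp4 222, 441, 385 and 412. Rnf43 there held 132, 143, 178 and 224 CPM. Clusters were built on all 4 libraries together with no correction between them, and cluster 5 held 7.88%, 8.22%, 16.4% and 18.03% of the cells at the 4 times. Cluster 11, led by ribosomal pseudogenes and also left unnamed, held 2.32%, 4.58%, 4.39% and 0.0451%. Cluster 2, led by 7SK and other small RNAs and with a median of 5445 UMIs per cell, held 17.5% of the 24 h cells against 1.02%, 0.304% and 2.11% at the earlier times, and its levels of Lgr5 (3.58 CPM), Olfm4 (333) and Smoc2 (25.1) were low. Cluster 4, led by Ctrb1, Reg3g and Cst6 and also left unnamed, held 1.19%, 3.04%, 20.7% and 24.0% of the cells at the 4 times. Its levels of Olfm4 (103 CPM) and Ascl2 (0.673) were the lowest of the 12 clusters, and Lgr5 was at 2.13 CPM. The part of clusters 2 and 4 in the levels over time was not tested.

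**Figure D4:**
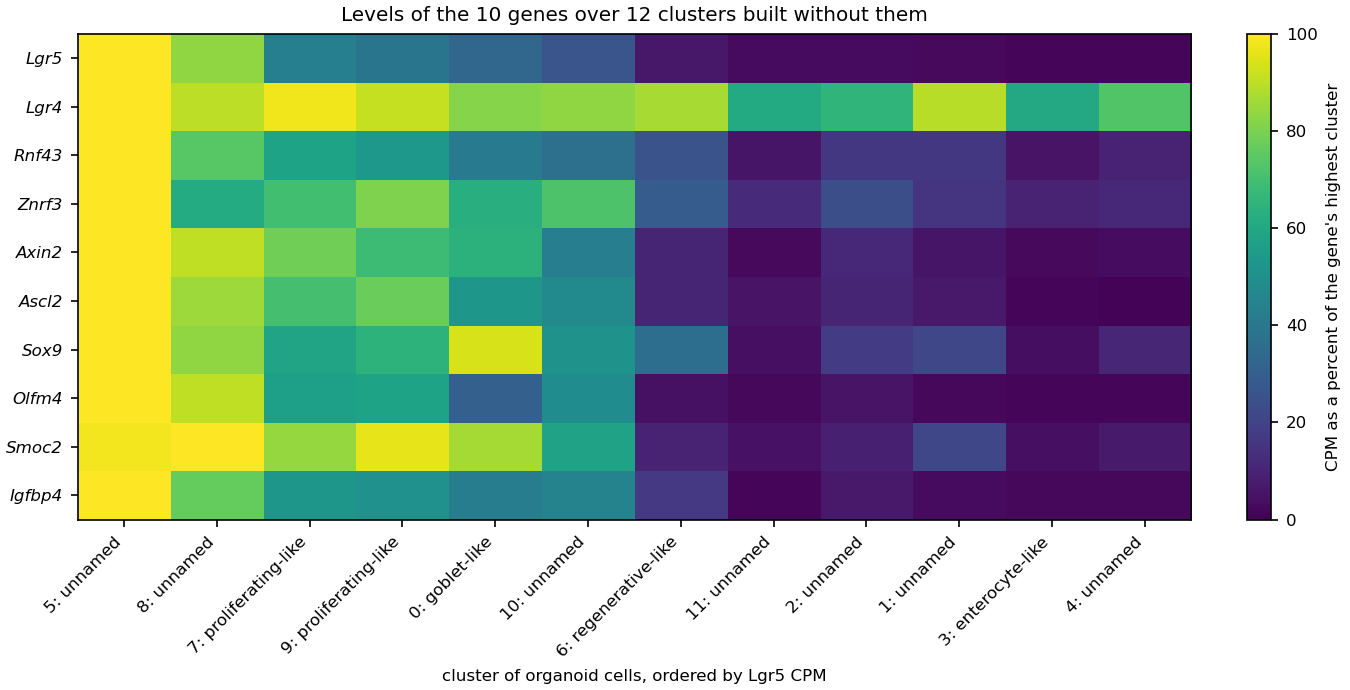
Colour gives each gene's CPM as a percent of its highest cluster, for 12 clusters of organoid cells (columns, ordered by Lgr5) built without the 10 genes (rows). In 9 genes the highest level is in cluster 5 and the enterocyte-like cluster 3 is far lower, while Lgr4 stays between 63.6 and 106 CPM in every column.

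In sorted Ki67-RFP+ crypt cells the level of most of the 10 genes differed between the non-irradiated library (1846 cells) and the 2 libraries taken 56 h after 12 Gy (719 and 699 cells). Igfbp4 was 4.83 and 4.12 times higher in the irradiated libraries, at 110 and 94.2 CPM against 22.8. Sox9 was 1.85 and 2.02 times higher (125 and 136 against 67.2 CPM), and Rnf43 1.46 and 1.67 times higher (44.8 and 51.2 against 30.7 CPM). Olfm4 was lower in both, at 740 and 329 CPM against 1641, which is 2.22-fold and 4.99-fold. The 2 irradiated libraries themselves differed 2.25-fold in Olfm4, so its size is known only roughly.

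Smoc2 was lower too (72.4 and 50.2 against 113 CPM), and so was Lgr5 (10.9 and 8.08 against 14.6 CPM). From whole-number entries Lgr5 was 7.37 and 5.41 against 12.9 CPM, the same direction and 1.75-fold and 2.39-fold lower. Ascl2 was higher, at 39.0 and 26.4 against 19.6 CPM. Lgr4 (91.7 and 94.0 against 103.5 CPM), Axin2 (72.7 and 61.3 against 65.3) and Znrf3 (12.1 and 11.6 against 10.4) differed less. In the first irradiated library 1 gene was at least 2-fold higher and 1 lower, beside 10% and 6.65% of 8541 genes, and in the second 2 were higher and 2 lower, beside 10.6% and 5.35% of 8634.

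**Figure D5:**
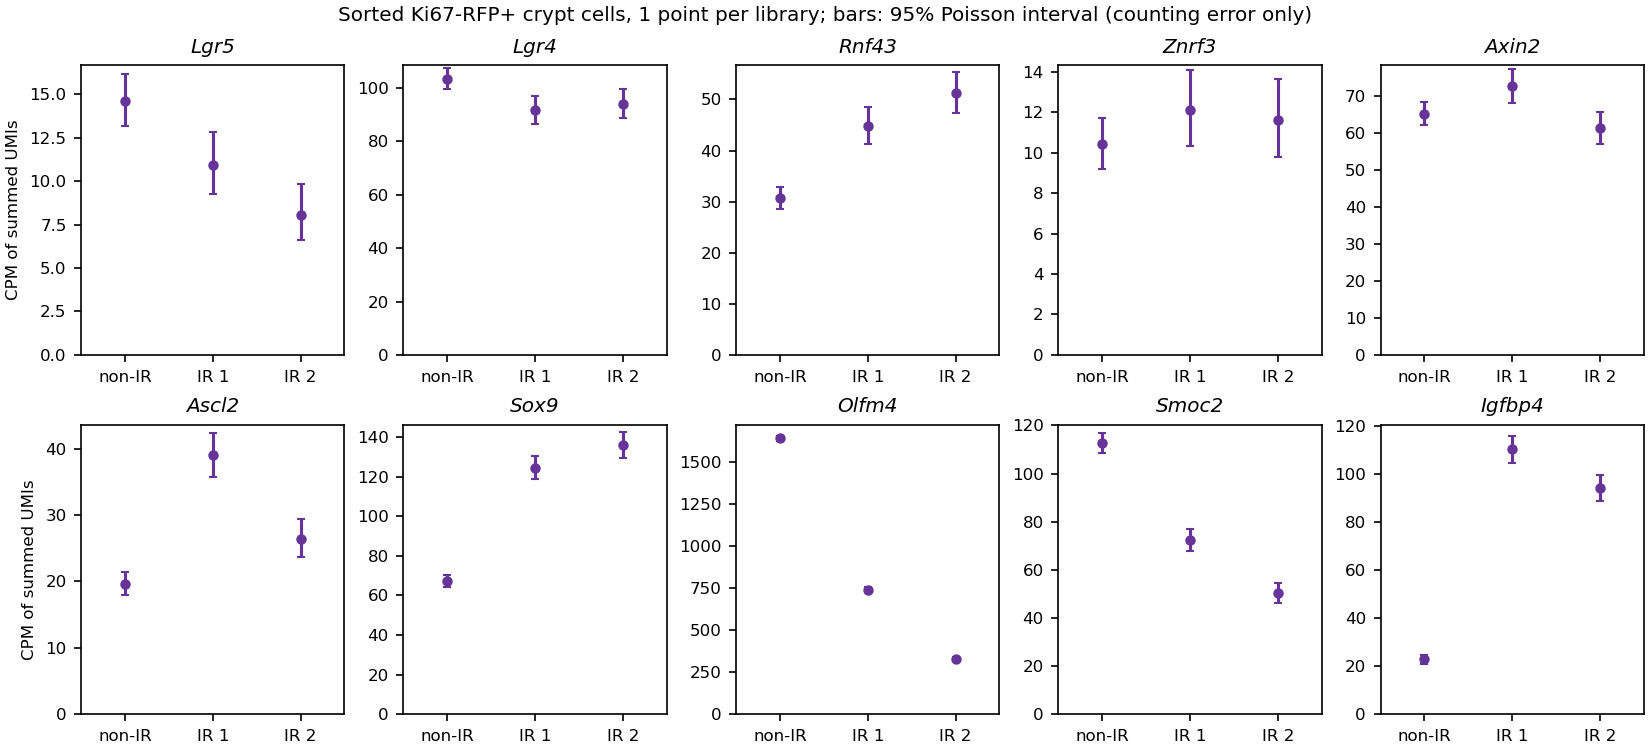
CPM of summed UMIs in the 3 libraries of sorted Ki67-RFP+ crypt cells (horizontal axis: non-irradiated, and 2 taken 56 h after 12 Gy); bars are 95% Poisson intervals for counting error only. Igfbp4, Sox9 and Rnf43 are higher and Olfm4, Smoc2 and Lgr5 lower in both irradiated libraries, and the irradiated pair differs most in Olfm4 (740 and 329 CPM).

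Other values differed in the sorted libraries too. Clu stood at 0.272 CPM without and at 49.8 and 74.4 CPM after irradiation, the summed Paneth markers at 2657 against 738 and 942, the summed enterocyte markers at 4704 against 942 and 2813, and Mki67 at 180 against 158 and 138. Ptprc was at 0.957, 2.89 and 1.46 CPM. Their part in the levels of the 10 genes was not tested. Of 12 clusters, 5 lay in the non-irradiated library apart from at most 0.143% of an irradiated library's cells, and 3 lay in irradiated libraries alone, so a cluster and a library cannot be told apart here. Among the latter, cluster 10, again led by small RNAs including 7SK, held 23.4% and 21.3% of the irradiated cells, with 7.35 CPM of Lgr5 and 620 of Olfm4. In the non-irradiated library Lgr5 and Olfm4 were highest in cluster 0 (30.4 and 3393 CPM, led by Sfrp5 and Gkn3), and among the irradiated cells in cluster 9 (12.3 and 1195 CPM, led by Rgcc), where Igfbp4 reached 166 and Ascl2 49.6 CPM. The regenerative-like cluster 11 held 9.43 CPM of Lgr5 and 117 of Olfm4, with Sox9 at 145 CPM. After thinning, Lgr5 was seen in 2.33% of non-irradiated cells (43 of 1846) and in 1.53% and 2.72% of irradiated ones (11 of 719 and 19 of 699), and in 0.248% of non-irradiated enterocyte-like cells. Without thinning the shares were 11.3% of non-irradiated cells and 11.5% and 9.73% of irradiated ones. Unlike its CPM, the share of cells with Lgr5 was thus not lower in both irradiated libraries. The irradiated Lgr5 levels rest on 150 and 99.7 UMIs.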

How the data were processed

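The authors deposited gene-level FPKM values in 3 tables, 1 per condition, and fractional expected counts (UMIs) per gene and cell in 7 matrices. The submitters' processing notes name TopHat2 2.1.0, Cuffnorm 2.2.1, STARsolo and STAR 2.7.10a, with builds mm9, GRCm39 and mm39 given without roles. The 3 tables may have been scaled apart, so tests stayed within a table or used differences of within-table changes. FPKM keep no read depth here. Bulk tests used limma 3.58.1 (R 4.3.3, trend and robust) on log2(FPKM + 1), genes averaging 1 FPKM or more, two-sided, with Benjamini-Hochberg adjustment over all genes; the script was tested on simulated data. Cells kept had at least 500 UMIs, 250 genes and at most 20% mitochondrial UMIs. Clusters came from scanpy 1.11.5, and called doublets (0.286% to 1.56% per library) were kept. A cluster was named from at least 3 detected markers with a median fold of at least 2, or 3 where none was among its 10 leading genes. The limit of 3 was set after the clusters were seen, and it left organoid clusters 5 and 11 unnamed. Cluster 5 had 8 Paneth markers detected at a median of 2.19-fold, and cluster 11 had 12 enterocyte markers at 2.58-fold. Cells of cluster 11 thus counted as other than enterocyte-like. Fractional values were rounded for thinning. The members, lists and the rule for named genes (members, list genes with the largest calls, the 5 nearest to Lgr5, and Clu, Mki67, Fabp1 and Lyz1) were chosen with earlier results of these data known. Accessibility peaks were not used here.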

Additional observations from a re-analysis of the deposited data

Results flagged for a closer look

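The response to TGFB1 differed between conditions for 8 of the 10 genes at day 7 and for 6 between day 11 and day 7, each by a test of the difference itself in limma, which called 6061 of 11411 and 7387 of 11456 genes in all. Between irradiated and non-irradiated day 7 organoids the log2 differences were -0.83 for Lgr5 (adjusted p = 8.28e-07), -0.44 for Lgr4 (1.06e-06), 0.81 for Olfm4 (0.000266), -1.24 for Ascl2 (1.07e-06), -0.98 for Axin2 (5.61e-07), -0.48 for Smoc2 (0.0015), -0.65 for Sox9 (4.58e-07) and -0.50 for Igfbp4 (1.24e-06). Between day 11 and day 7 in irradiated organoids they were 0.47 for Lgr4 (adjusted p = 0.00631), 2.39 for Olfm4 (7.74e-07), 1.26 for Axin2 (2.51e-07), 1.21 for Smoc2 (1.75e-06), -0.51 for Rnf43 (0.000104) and -1.78 for Igfbp4 (2.04e-07). Both changes behind the term were called, with opposite signs, for Lgr4 between irradiated and non-irradiated organoids (the latter not called by a limma fit over the 18 libraries together, adjusted p = 0.108) and for Olfm4, Axin2 and Igfbp4 between days.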

How the results depend on the processing

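Counting changes of at least 2-fold on the log2(FPKM + 1) scale in place of calls left 5, 3 and 0 of the 10 genes in non-irradiated, irradiated day 7 and day 11 organoids and 1 and 4 in the irradiation and day terms, and 956, 1484, 1574, 500 and 1880 of all genes in the 3 tables and the irradiation and day terms. Leaving out 1 library at a time, the genes called among the 10 numbered 8 in both day 7 tables and in the irradiation term, and 6 to 8 on day 11 and in the day term. Over all genes the same fits called 7218 to 7596, 8100 to 8265, 6464 to 7591, 5683 to 5914 and 6937 to 7715. Axin2 in non-irradiated organoids was called with median-ratio scaling (0.12, adjusted p = 0.044). With all 18 libraries in one limma fit, Lgr4 was not called in non-irradiated organoids (adjusted p = 0.108) and was called on day 11 (0.0429). The sign of terms that were not called turned for Znrf3 in the irradiation term (0.011513 with median-ratio scaling, and 0.008256, 0.025922 and 0.005249 without irradiated vehicle replicate 2, irradiated TGFB1 replicate 1 or non-irradiated TGFB1 replicate 2; leaving out 1 library gave -0.063026 to 0.025922) and for Sox9 in the day term (0.050168 with quantile normalization, and 0.026793 without day 11 TGFB1 replicate 2; leaving out 1 library gave -0.092332 to 0.026793). The cause was not tested. Single-cell CPM stayed within 0.67 to 1.28 of the reported value from whole-number entries alone and within 0.970 to 1.08 under other cell filters, the removal of called doublets having been added after seeing the data. Shares of cells with a UMI moved with the thinning depth in 69 of 70 values.

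Whether replicate numbers pair the libraries cannot be settled with 3 libraries per group. The deviations of same-numbered vehicle and TGFB1 libraries correlated between -0.086 and 0.213. Those of differently numbered libraries correlated between -0.165 and 0.204. With the replicate block, Axin2 in non-irradiated organoids was called (adjusted p = 0.0451), making 9 genes there, and the counts were 8 in irradiated day 7 organoids, 7 on day 11, 8 in the irradiation term and 6 in the day term, beside 7701, 8417, 7351, 5964 and 7396 of all genes.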
